A study of Mus musculus with 16 samples.

Results

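The 10 genes described here are oncogenes and G1 cell-cycle genes that are recurrently altered in osteosarcoma: *Myc*, *Mycn*, *Ccnd1*, *Ccnd2*, *Ccnd3*, *Cdk4*, *Cdk6*, *Met*, *Yap1* and *Birc2*. They were chosen by gene name from a raw count table of 25054 genes, and all 10 were found in it. Their levels were examined in each tumor separately, and tumors with outlying levels were looked for. RNA was sequenced from 16 mouse osteosarcomas after removal of ribosomal RNA, to ask how loss of *Arid1a* changes gene expression. The 8 tumors of the KO group came from 8 OsxCreERT2+/-;p53fl/fl;Rb1fl/fl;Arid1afl/fl mice, and the 8 WT tumors from 4 OsxCreERT2+/-;p53fl/fl;Rb1fl/fl mice. All mice therefore carried floxed *Trp53* and *Rb1* and a tamoxifen-inducible Cre driven in *Osterix*-expressing cells of the osteoblast lineage. They received 400 μg of tamoxifen per gram at 1 month of age and were older than 6 months at collection, of both sexes. Of the WT tumors, 4 were from mouse N42 (R pelvis, R femur, L limb and L shoulder), 2 from N43 (spine and pelvis), and 1 each from N215 (R hind limb) and N25 (lung). P-values over tumors treat those of N42 and N43 as separate samples.

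*Myc* and *Mycn* encode transcription factors that bind E-box sequences together with MAX and drive growth and ribosome production. The D-type cyclins activate CDK4 and CDK6, which phosphorylate the RB protein and so release E2F factors to start S phase. The gene of that substrate, *Rb1*, carried floxed alleles in all of these mice. MET is the receptor of hepatocyte growth factor, YAP1 is the coactivator restrained by the Hippo kinases, and BIRC2 (cIAP1) is a ubiquitin ligase that limits cell death and restrains noncanonical NF-kB signaling. *Yap1* and *Birc2* lie in one gene cluster, with *Birc3* between them, and are known for their joint amplification in several cancers.

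Total counts per tumor ranged from 1109487 to 15059640 in KO (median 5367670) and from 7806160 to 16962329 in WT (median 14828152). Levels are given as CPM, counts scaled by the normalized library size. The KO tumors Massa and Grilka were sequenced least deeply, with 1109487 and 1812818 counts. Their 20 most abundant genes took 72.8% and 70.3% of the counts, against 12.5% to 43.7% in the other tumors. Their normalization factors were 0.409 and 0.414, which raised their CPM further. With depth and factor together, 3 counts were worth 6.69 CPM in Massa and 4.03 CPM in Grilka, against 0.340 CPM or less in WT. Osteoblast marker genes took 0.0719% to 6.10% of the counts in KO and 0.291% to 8.43% in WT. Markers of another tissue took at least 1% of the counts in 5 tumors. They were skeletal muscle in Montana (8.16%) and Oregon (14.3%), salivary gland in Prince (11.1%), and lung in Massa (1.15%) and N25 (2.89%). In those 5 tumors the osteoblast markers were at or below 0.301%. They were also low in N215, at 0.486%, with 2 of the 13 markers at 0. In the WT tumors other than N215 and N25 they took 2.44% to 8.43%. Macrophage markers took 0.0225% to 0.0792% of the counts in KO and 0.0456% to 0.196% in WT, and their part in the group differences was not tested. In bulk RNA, fewer cells of a type and less RNA per cell cannot be told apart. Counts were over whole genes, so floxed exons cannot be told apart from the rest. The log2 fold changes of the targeted genes, KO over WT, were 0.16 ± 0.22 (SE) for *Arid1a*, 0.55 ± 0.24 for *Trp53* and 0.22 ± 0.33 for *Rb1* (edgeR adjusted p = 0.715, 0.183 and 0.734).

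Promoter sequence was available in the RefSeq table (GRCm38.p6) for 7 of the 10 genes: *Mycn*, *Ccnd3*, *Cdk4*, *Cdk6*, *Met*, *Yap1* and *Birc2*. Both strands of the 250 bases before each start were searched for the E2F motif (TTTCCCGC, TTTCGCGC, TTTGCCGC or TTTGGCGC), the E-box CACGTG, the TEAD motif GGAATG and TATAAA. Of 32851 promoters in the table, 1.86% held the E2F motif, 6.02% the E-box, 12.6% the TEAD motif and 12.4% TATAAA. The promoters of *Mycn*, *Cdk4* and *Yap1* are shown because they carry the motifs of the pathways treated here, with every match in capitals and positions counted back from the start. In *Mycn* (chr12:12941837-12942086, minus strand) the E2F motif matched at 3 positions, −183, −179 and −168, of which the first and second overlap. In *Cdk4* (chr10:127063285-127063534, plus strand) the E-box stood at −172, −118, −98 and −11. In *Yap1* (chr9:8004597-8004846, minus strand) an E-box at −163 was followed by a TEAD motif at −141.
Mycn: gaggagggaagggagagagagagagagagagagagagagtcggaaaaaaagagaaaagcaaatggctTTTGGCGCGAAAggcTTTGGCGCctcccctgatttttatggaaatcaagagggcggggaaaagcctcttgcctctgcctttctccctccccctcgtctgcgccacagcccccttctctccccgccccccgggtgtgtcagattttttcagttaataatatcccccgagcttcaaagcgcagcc
Cdk4: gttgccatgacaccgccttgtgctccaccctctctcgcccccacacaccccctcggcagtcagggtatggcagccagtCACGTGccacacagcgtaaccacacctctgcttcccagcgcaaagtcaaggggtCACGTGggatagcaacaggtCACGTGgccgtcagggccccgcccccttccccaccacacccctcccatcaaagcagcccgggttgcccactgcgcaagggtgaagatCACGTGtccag
Yap1: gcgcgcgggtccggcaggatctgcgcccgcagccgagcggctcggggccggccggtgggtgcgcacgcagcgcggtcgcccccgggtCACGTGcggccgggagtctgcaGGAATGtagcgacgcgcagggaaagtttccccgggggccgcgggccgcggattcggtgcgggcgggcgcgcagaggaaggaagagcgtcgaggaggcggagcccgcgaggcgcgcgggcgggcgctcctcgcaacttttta
One E-box each was also found before *Cdk6* and *Met*, so that 4 of the 7 genes with a promoter held it. A TEAD motif also stood at −17 before *Ccnd3*, and TATAAA at −103 before *Cdk6*. The 7 genes had 9 promoters in all, and the shares given above are per promoter. A match describes the letters in the window and does not show binding.

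Between KO and WT tumors, none of the 10 genes passed the test across all genes, but the level of *Ccnd1* and of *Cdk6* was lower in most KO tumors. The mean of *Ccnd1* was 62.6 ± 42.4 CPM (SD, n = 8) in KO and 183 ± 75.5 CPM (n = 8) in WT, and that of *Cdk6* was 47.2 ± 40.6 and 119 ± 50.6 CPM. The test covered 9 genes, and *Mycn* was left out by the filter on low counts. With edgeR, 0 of the 9 passed an adjusted p of 0.05 over the 15413 genes tested, against 4.01% of all genes (1.86% higher and 2.15% lower in KO). At an unadjusted p under 0.05 there were 3 of 9 (*Ccnd1*, *Cdk6* and *Yap1*), against 23% of all genes. DESeq2 called 1 of 10, *Ccnd1*, against 12.5% of all genes it tested. For *Mycn* it replaced the 321 counts of N215 by 5 as an outlier and gave a log2 fold change of 1.20 (adjusted p = 0.350). With edgeR without the filter on low counts that of *Mycn* was −2.48 (adjusted p = 0.273). Called by limma-voom, which took tumors of 1 mouse as correlated, were 0 of 9, against 0.11%. For none of the 10 genes were the KO and WT values separate, which was the case for 0.415% of the genes tested.

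Single tumors were examined next. A tumor was called high for a gene when its log2 CPM was at least 2, that is 4-fold, above the median of the 16 tumors. Of the 9 tested genes, 4 had such a tumor, against 31.4% of all genes tested. They were *Myc* in Ohio, *Ccnd2* in N215, *Met* in Prince and in N25, and *Yap1* in Grilka. *Mycn*, outside the tested set, was high in N215. Exactly 1 high tumor was found for 3 of the 9 genes, against 15.2% of all genes. A tumor at least 4-fold below the median was found for 3 of the 9 (*Myc*, *Ccnd1* and *Cdk6*), against 46.4%. Shares this near those of all genes say nothing particular to these genes as a group, and the tumors are described gene by gene.

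**Figure D1:**
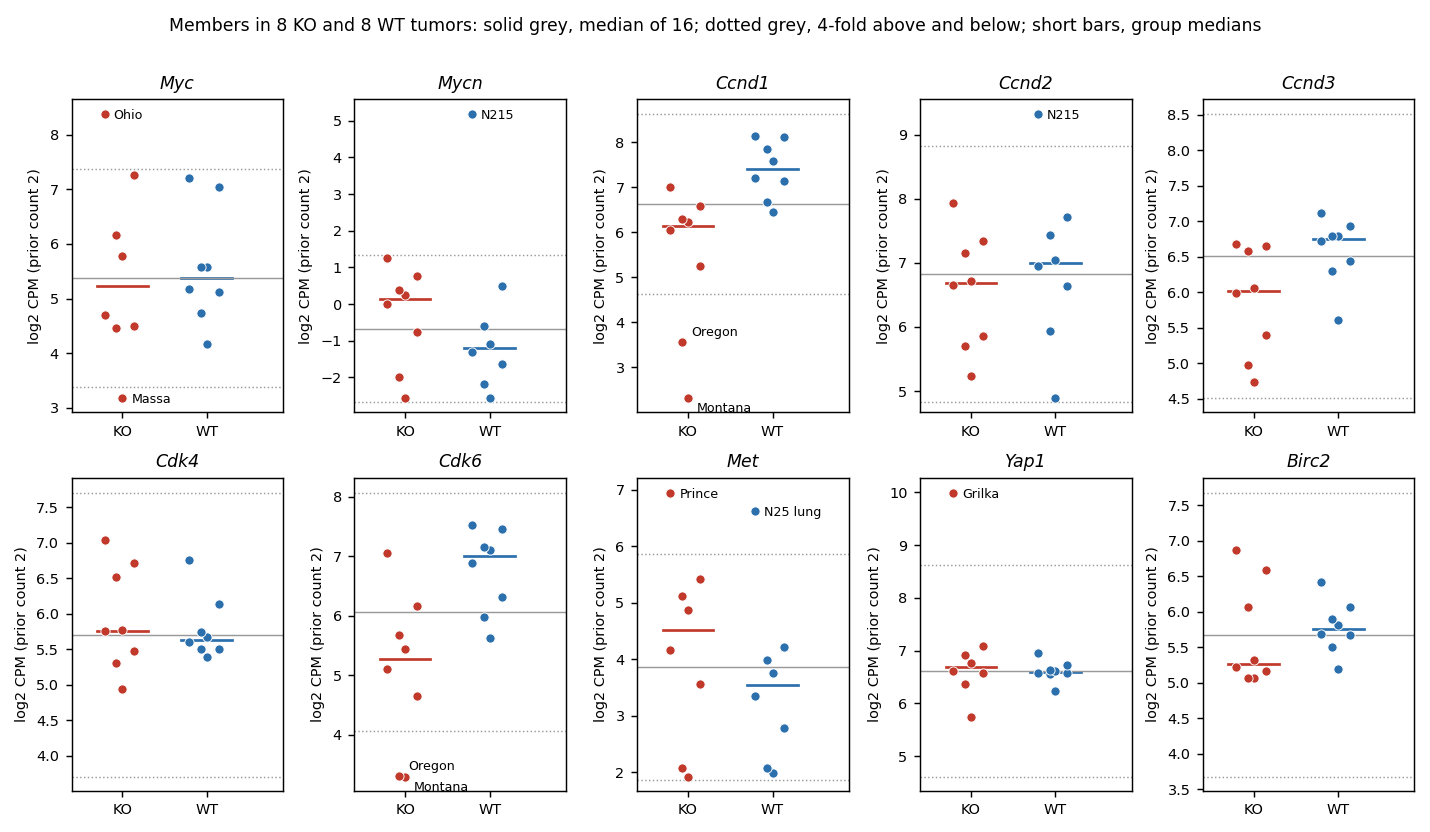
Log2 CPM (prior count 2) of each gene in the 8 KO (red) and 8 WT (blue) tumors, 1 point per tumor, with the median of the 16 as a solid grey line, the 4-fold limits as dotted lines and the group medians as short bars. Named points lie at or beyond the 4-fold limits: Ohio for *Myc*, N215 for *Mycn* and *Ccnd2*, Prince and N25 for *Met* and Grilka for *Yap1* on the high side, and Massa for *Myc* and Montana and Oregon for *Ccnd1* and *Cdk6* on the low side.

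*Myc* (chr15:61985391-61990374) was highest in the KO tumor Ohio, at 333 CPM from 3493 counts. The KO tumors ranged from 8.92 CPM in Massa through a median of 40.1 CPM to Ohio, and the WT tumors from 17.8 CPM in N25 through 41.8 CPM to 147 CPM in N42 L limb. Ohio was 8.03-fold above the median of the 16, and 0.701% of the tested genes stood as far above their median in that tumor, while 13.5% did so in at least 1 of the 16. Grilka (153 CPM), N42 L limb (147 CPM) and N215 (132 CPM) followed, so both groups held tumors with high *Myc* and the groups overlapped throughout. The low value of Massa rested on 4 counts, with a 95% Poisson interval of 2.43 to 22.8 CPM. Such intervals cover counting error only. The log2 fold change, KO over WT, was 0.50 ± 0.65 (edgeR adjusted p = 0.688), and it was −0.27 without Ohio.

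In Ohio the high level of *Myc* was shared by the transcripts around it. *Pvt1*, the long noncoding RNA gene that starts 52.6 kb from *Myc* and the only tested gene within 1 Mb, had 1330 CPM from 13940 counts, against a median of 16.5 CPM. N215 had 424 CPM of *Pvt1* and N42 L limb 143 CPM, ranking next after Ohio, while Grilka, with 153 CPM of *Myc*, had only 9.40 CPM from 7 counts. Of the 32 genes of the table that start within 2 Mb of *Myc*, 13 were highest in Ohio (40.6%), against 7.42% of all genes in the table. None of the 13 was annotated as protein coding, and most had few counts elsewhere. *Gm30159* had 561 CPM in Ohio and at most 3.63 CPM in the others, and *Gm41335* had 98.4 CPM and at most 2.72 CPM. Farther out the levels were mixed. Below *Myc*, *Lratd2* at 1132 kb was at 6.49 CPM (median 7.21), *9930014A18Rik* at 1163 kb was 3.27-fold above its median at 4.2 CPM from 44 counts, and *Trib1* was at 7.25 CPM (median 16.9). On the other side *Fam49b* was at 80.7 CPM (median 67.4) and *Asap1* at 156 CPM (median 139). *Fam49b* and *Asap1* were instead highest in N215, with 537 and 639 CPM. DNA copy number was not measured here, and its part in these levels was not tested.

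*Mycn* (chr12:12936093-12941914) was almost silent except in the WT tumor N215. There it had 321 counts, or 36.4 CPM (95% 32.5 to 40.6). Elsewhere it ranged from 0 to 2.23 CPM, with 0 counts in Grilka and in N42 R femur and at most 19 counts, in N25. No other tumor came near N215, and at this depth and scaling a level of up to 4.95 CPM could not be seen in Grilka. Of the 4 tested genes within 1 Mb of *Mycn*, 0 were at least 2-fold above their median in N215, against 14.6% of all genes. *Ddx1*, the RNA helicase gene often amplified with *MYCN* in neuroblastoma, was at 65.8 CPM (median 66.3), and *Nbas* was at 63.1 CPM (median 65.7). On the other side *Fam49a* was at 13.2 CPM (median 14.1), *Gm4294* had 8 counts and *Rad51ap2* 14. Farther out, *Gen1*, at 1676 kb, was 4.45-fold above its median, and *Trib2*, the next tested gene beyond *Nbas*, was highest of the 16 in N215 at 72.0 CPM (median 32.8). None of the 15 genes of the table within 2 Mb was highest in N215. *Mycl*, the other family member and not one of the 10 genes, was also highest in N215 with 40.6 CPM (median 1.09); it was named after its values were seen. N215 thus had the highest level of *Mycn* and *Mycl*, and 3 tumors had more *Myc*.

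Genes of the MYC pathway were read from lists. Of 12 tested partners and antagonists of MYC (among them *Max*, *Mxd4* and *Mga*), 0 passed the edgeR test, against 4.01% of all genes. Their median log2 fold change was −0.06, against 0.10 for all genes. Of 20 textbook targets of MYC, 0 passed and 6 had an unadjusted p under 0.05, against 23% of all genes. The median of the targets was 0.65, with 18 of 20 above 0. The most abundant were *Ncl* (nucleolin), at 441 ± 212 CPM in KO and 271 ± 78.8 CPM in WT (adjusted p = 0.180), and *Ldha* (lactate dehydrogenase), at 355 ± 375 and 197 ± 107 CPM (adjusted p = 0.335). In Ohio, 11 of the 20 targets were at least 2-fold above their median, against 13.5% of all genes in that tumor, and the median distance was 1.06. It was 0.55 in Grilka, 0.42 in N215, 0.31 in N42 L limb and 0.52 in Medusa, which had 71.6 CPM of *Myc*. Zelda, with 54.5 CPM of *Myc*, stood at 0.39, above N42 L limb. Proliferation markers took 0.145%, 0.122%, 0.144%, 0.119% and 0.256% of the counts in Ohio, Grilka, N215, N42 L limb and Medusa. Their share was 0.241% in Zelda, against a median of 0.0541% over the 16. The part of these markers in the target levels was not tested.

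*Ccnd1* (cyclin D1, chr7:144929931-144939925) was lower in KO. The KO tumors ranged from 4.85 CPM in Montana through a median of 70.7 CPM to 129 CPM in Massa. The WT tumors ranged from 87.0 CPM in N43 spine through 171 CPM to 283 CPM in N42 L limb. Only Massa and Grilka, with 58 and 72 counts, reached into the WT range, and Montana (19 counts) and Oregon (42 counts) lay far below all others. The log2 fold change was −1.56 ± 0.50, which missed the threshold (edgeR adjusted p = 0.0789). DESeq2 gave −1.51 (adjusted p = 0.0311), and edgeR without Massa and Grilka gave −2.03 (adjusted p = 0.0439). The exact permutation test of the mean log2 CPM, two-sided, gave p = 0.00124 over tumors for this gene alone and p = 0.0323 with counts summed per mouse (8 KO and 4 WT mice). In edgeR on the 12 mice the log2 fold change was −1.52 with an adjusted p of 0.594, where 10 genes of the table passed in all, and without the 4 tumors of N42 it was −1.39 (adjusted p = 0.612, 8 genes called).

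Montana and Oregon, the tumors lowest in *Ccnd1*, were also the tumors where the 13 skeletal muscle markers, all of them detected, took 8.16% and 14.3% of the counts; in the other KO tumors they took at most 0.0262%, and in WT 0.000962% to 0.811%. The proliferation list took 0.00707% and 0.0110% there. It was also low in Prince (0.00824%) and Massa (0.0152%), where *Ccnd1* was at 78.9 and 129 CPM. The 5 tumors that held markers of another tissue were chosen after seeing the data. All but N25 were KO, and they included Montana and Oregon. The fit without them still took tumors of N42 and N43 as separate samples. In that fit the log2 fold change of *Ccnd1* was −1.47 ± 0.40 and it passed the threshold (edgeR adjusted p = 0.0451, 1195 genes called). It was the only one of the 9 genes that did so in that fit.

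*Ccnd2* (cyclin D2, chr6:127125162-127152193) stood out in 1 WT tumor. N215 had 641 CPM from 5651 counts, 5.65-fold above the median of the 16, and the next value was 245 CPM in Massa. As far above their median in at least 1 tumor stood 20.2% of the tested genes. The other WT tumors lay between 29.6 CPM (N43 spine) and 211 CPM (N42 R pelvis), and the KO tumors between 37.4 CPM (Prince) and Massa with a median of 102 CPM. Apart from N215 the groups covered much the same range. The log2 fold change was −0.72 ± 0.53 (edgeR adjusted p = 0.441), and it was −0.043 without N215 (edgeR adjusted p = 0.968). Of the 9 tested genes within 1 Mb, 5 were at least 2-fold above their median in N215, against 14.6% of all genes in that tumor, and 2 were highest there: *Rad51ap1*, at 20.5 CPM (median 4.37), and *Tspan11*, at 304 CPM (median 51.7). *Tigar*, 42.6 kb away, was at 14.3 CPM (median 5.85), while *D6Wsu163e*, 212 kb away, was at 11.1 CPM (median 13.7). On the other side *Parp11* was at 31.5 CPM (median 17.4), *Cracr2a* at 39.1 CPM (median 16.5) and *Gm43633* at 3.86 CPM (median 1.05). Within 2 Mb, 18 of 77 genes of the table were highest in N215 (23.4%), against 7.08% of all genes.

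*Ccnd3* (cyclin D3, chr17:47505051-47599691) varied least of the D-type cyclins. It ranged from 26.6 CPM in Oregon to 103 CPM in Zelda in KO and from 48.7 CPM in N215 to 138 CPM in N43 spine in WT. N215, highest in *Ccnd2*, was lowest of the WT tumors in *Ccnd3*. Its log2 fold change was −0.61 ± 0.31 (edgeR adjusted p = 0.243). The exact permutation p was 0.0460 over tumors and 0.299 over mice.

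Compared per kb of exon, the D-type cyclins differed in which one led. On that scale *Ccnd1* had the highest level in 7 of 8 WT tumors and in 5 of 8 KO tumors, and *Ccnd2* led in N215 and in Montana, Zelda and Oregon. Per kb of coding sequence *Ccnd1* led in 4 of 8 WT tumors and in 0 of 8 KO tumors, *Ccnd2* in 3 WT and 7 KO tumors, and *Ccnd3* in N43 spine and Prince. Only the lead of *Ccnd2* in N215, Montana, Zelda and Oregon, and of *Ccnd1* in N42 R pelvis, N42 L limb, N25 and N43 pelvis, held on both scales. On average *Ccnd1* made up 55.9% ± 11.6 (SD, n = 8) of the 3 cyclins in WT and 36.4% ± 16 in KO. The sum of the 3 was lowest in Montana (10.7 CPM per kb) and Oregon (11.1) and highest in N215 (123). With coding length in place of exon length the *Ccnd1* share was 42.1% in WT and 24.9% in KO, so the shares depend on the length used as well.

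**Figure D2:**
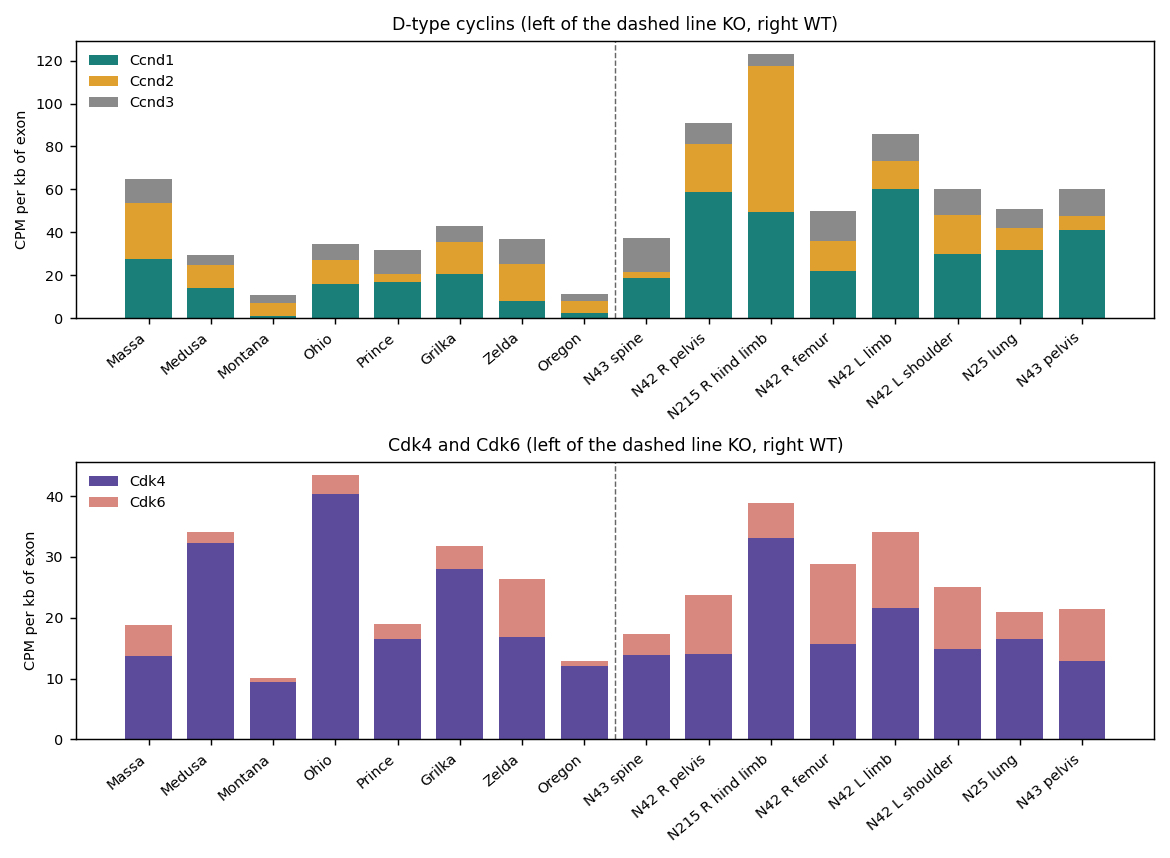
Stacked levels of the 3 D-type cyclins (top) and of *Cdk4* and *Cdk6* (bottom) in each of the 16 tumors, in CPM per kb of exon, with KO to the left of the dashed line. On this scale *Ccnd1* is the largest piece of the cyclin bar in 7 WT tumors (4 with coding length) and 5 KO tumors (0 with coding length), *Ccnd2* leads in N215, Montana, Zelda and Oregon on both, and the *Cdk6* piece is smallest in Montana and Oregon.

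*Cdk6* (chr5:3341485-3531008) followed *Ccnd1* in its low values. KO tumors ranged from 9.69 CPM in Montana and 9.79 CPM in Oregon through a median of 38.8 CPM to 133 CPM in Zelda. WT tumors ranged from 49.1 CPM in N43 spine through 128 CPM to 184 CPM in N42 R femur. Zelda stood above the rest of KO and lay just above the WT median, below the 4 tumors of N42. Massa (71.4 CPM from 32 counts) and Grilka (51.0 CPM from 38 counts) also reached into the WT range. The log2 fold change was −1.34 ± 0.48 (edgeR adjusted p = 0.109). Without Zelda it was −1.81 and passed the threshold (adjusted p = 0.0208). In Zelda erythroid markers took 0.155% of the counts (median 0.00174%) and lymphoid markers 0.180% (median 0.00357%), the highest shares of the 16. Their part in the *Cdk6* level was not tested. The exact permutation p was 0.00637 over tumors and 0.0808 over mice, and without the 5 tumors with other tissue the log2 fold change was −1.0 (edgeR adjusted p = 0.190). The 4 highest values were those of the 4 tumors of N42 (137 to 184 CPM), and without them the log2 fold change was −0.68 (edgeR adjusted p = 0.791).

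*Cdk4* (chr10:127063534-127067920) did not show this difference. It ranged from 30.6 CPM in Montana through a median of 54.2 CPM to 131 CPM in Ohio in KO, and from 42 CPM in N43 pelvis through 49.5 CPM to 108 CPM in N215 in WT. The groups covered nearly the same range, and the log2 fold change was 0.25 ± 0.31 (edgeR adjusted p = 0.673). The 5 highest values were in Ohio, N215, Medusa (105 CPM), Grilka (91.3 CPM) and N42 L limb (70.2 CPM). The same 5 tumors were also the 5 highest in *Myc*, in another order. Per kb of exon, *Cdk4* made up 86.0% ± 11.5 of *Cdk4* plus *Cdk6* in KO and 67.5% ± 11.8 in WT. With coding length these shares were 64.5% and 36.3%, so that *Cdk6* was the higher of the pair in WT on that scale.

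Around the cyclins and their kinases, 21 genes of the G1/S machinery were tested, and 1 rose: *E2f4*, a repressive E2F factor, at 46.6 ± 11.6 CPM in KO against 19.2 ± 4.29 CPM in WT (log2 fold change 1.28 ± 0.21, edgeR adjusted p = 0.00530). None fell. Of all genes tested, 1.86% were called higher and 2.15% lower in KO. The median over the 21 was 0.19, against 0.10 for all genes. Of 7 CDK inhibitors 0 passed and 2 had an unadjusted p under 0.05 (23% of all genes did), with a median of −0.48. The most abundant, *Cdkn1b* (p27), was at 68.3 ± 23.0 CPM in KO and 95.3 ± 17.9 CPM in WT (edgeR adjusted p = 0.190), and *Cdkn1a* (p21) at 57.4 ± 59.0 and 86.7 ± 32.8 CPM (adjusted p = 0.515). *Tfdp1*, the dimer partner of the E2F factors, had 3155 CPM from 14941 counts in Medusa, against a median of 68.7 CPM and 194 CPM in the next tumor. It was named after its values were seen.

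*Met* (chr6:17463800-17573980) was high in 1 tumor of each group. Prince (KO) had 123 CPM from 1485 counts and N25 lung (WT) 98.5 CPM from 1526 counts. As far above their median in at least 1 tumor stood 12.7% of the tested genes for Prince and 16.3% for N25. The other KO tumors lay between 3.63 CPM in Ohio and 42.6 CPM in Montana, and the other WT tumors between 3.79 CPM in N42 L limb and 18.5 CPM in N43 pelvis. The groups overlapped, and *Met* had the lowest median per kb of exon of the 9 tested genes (1.88 CPM per kb). Its log2 fold change was 0.66 ± 0.75 (edgeR adjusted p = 0.641). It was −0.063 without Prince and 1.71 ± 0.65 without N25 (edgeR adjusted p = 0.117).

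Both tumors high in *Met* held markers of epithelial tissue. The 10 salivary gland markers, all detected, took 11.1% of the counts in Prince and at most 0.0520% in the other KO tumors. The 9 lung markers, all detected, took 2.89% in N25 and at most 0.00775% in the other WT tumors. The 9 epithelial markers took 0.177% in Prince and 0.0671% in N25, the 2 highest values, with none at 0, and 0.0404% in Massa, where *Met* was at 29.0 CPM. Their part in the *Met* level was not tested. Without the 5 tumors holding other tissue, the log2 fold change of *Met* was −0.09 ± 0.55 (edgeR adjusted p = 0.942). Of the 8 tested genes within 1 Mb of *Met*, 1 was at least 2-fold above its median in Prince, *Tes* (70.2 CPM, median 8.91), against 18.4% of all genes, while *Cav2* (9.21 CPM) and *Capza2* (67.9 CPM) were at their lowest of the 16. In N25 it was 3 of 8, against 13.7% of all genes: *Tes* (27.0 CPM) and the caveolin genes *Cav1* (416 CPM, median 35.8) and *Cav2* (156 CPM, median 22.1). Each of the 3 was second highest there, *Gm43533* was at 2.84 CPM (median 2.71), and *Capza2* and *St7* were below their medians.

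Of the MET pathway list, 11 of 14 genes were tested and 1 fell: *Plaur*, the urokinase receptor, at 9.47 ± 7.10 CPM in KO against 54.4 ± 32.7 CPM in WT (log2 fold change −2.46 ± 0.57, edgeR adjusted p = 0.0243). Of all genes tested, 2.15% were called lower in KO. *Hgf*, the ligand, was low throughout, at 8.84 ± 6.81 CPM in KO and 12.2 ± 9.13 CPM in WT (edgeR adjusted p = 0.596). Its highest value, 33.8 CPM, was in N25.

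*Yap1* (chr9:7931999-8004596) stood out in 1 tumor. In the others it lay between 53 CPM (Zelda) and 137 CPM (Prince). In Grilka (KO) it had 760 counts, or 1020 CPM (95% 949 to 1096), 10.4-fold above the median of the 16. Among the 4 tumors of N42 it ranged from 93.9 to 106 CPM, with an SD of 0.08 in log2 CPM. The single tumor set the group comparison: the log2 fold change was 1.12 ± 0.52 with all tumors (edgeR adjusted p = 0.212) and −9.96e-05 without Grilka (adjusted p = 1.00). DESeq2, which replaced the count of Grilka by 72 as an outlier, gave 0.02 (adjusted p = 0.950). The exact permutation p was 0.571. In Grilka 0.779% of the tested genes stood as far above their median, and 10.1% of genes did so in at least 1 of the 16 tumors.

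In Grilka most tested neighbors of *Yap1* were high as well. Of the 11 tested genes that start within 1 Mb of *Yap1*, 9 were at least 2-fold and 7 at least 4-fold above their median in Grilka, against 14.5% and 4.24% of all genes in that tumor. Of the 11, 8 were highest of the 16 in Grilka (72.7%), against 8.73% of all genes tested. On the side of lower coordinates, *Birc3* (cIAP2), 131 kb away, was at 168 CPM (median 38.3), *Tmem123*, 241 kb away, at 514 CPM (median 126), and the collagenase gene *Mmp13*, 732 kb away, at 1998 CPM (median 277). *Dcun1d5* and *Dync2h1*, which start 820 kb away, were at 376 CPM (median 42.7) and 536 CPM (median 93.1). On the other side, *Cfap300*, 38.2 kb away, was at 75.2 CPM (median 5.27) and *Cep126*, 130 kb away, at 115 CPM (median 6.04). The run ended before *Trpc6*, 540 kb away, at 8.06 CPM from 6 counts (median 9.17), and on the lower side *Pdgfd*, 1836 kb away, was still at 181 CPM (median 17). Inside the run *Mmp3* had 0 counts in Grilka and *Mmp12* had 4. The library is shallow, and these values rest on 56 to 1488 counts for the genes named as high. Its normalization factor of 0.414 also enters each of these CPM values. Copy number was not measured for this region either.

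**Figure D3:**
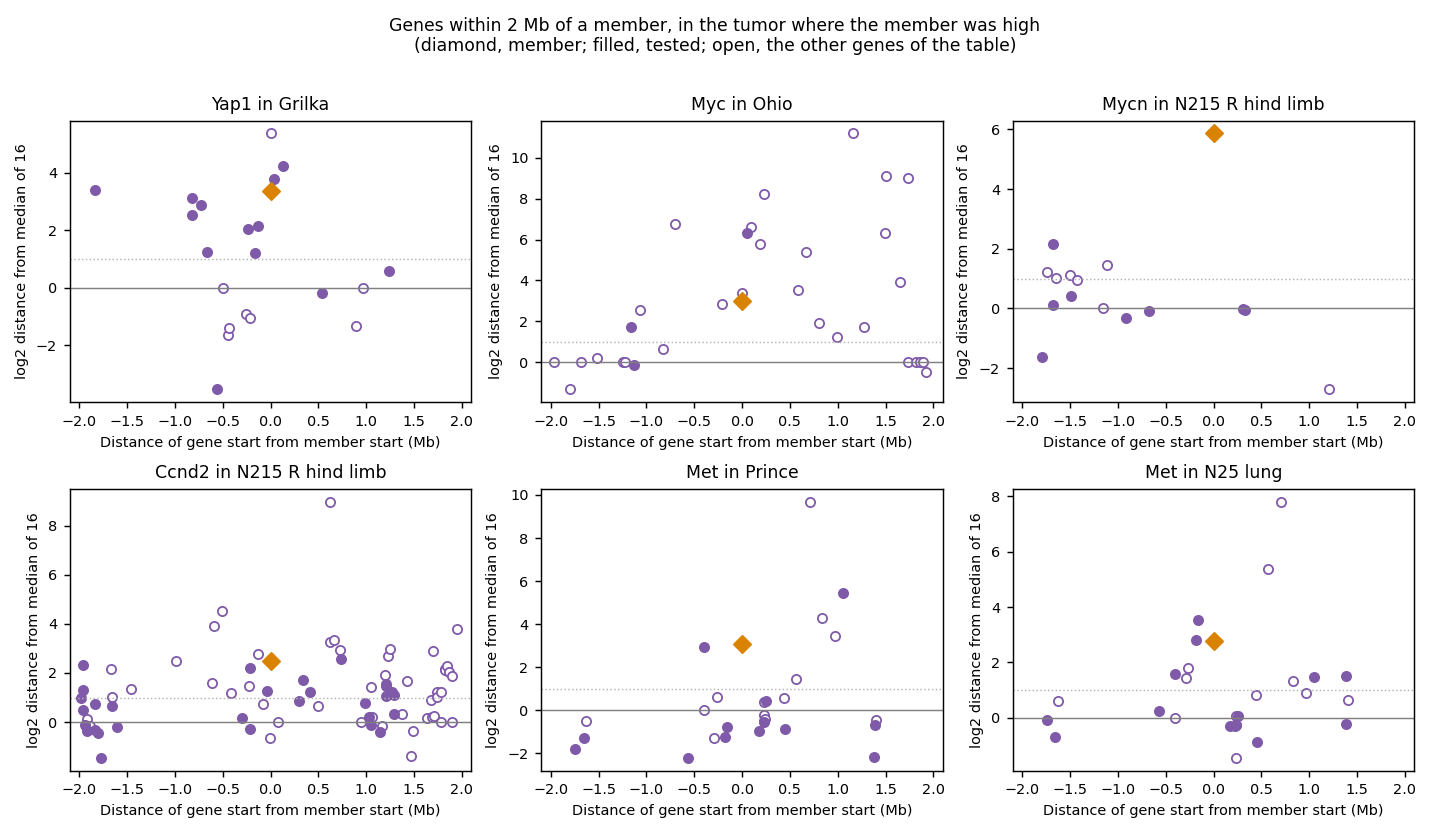
Log2 distance from the median of the 16 tumors for genes that start within 2 Mb of a gene, in the tumor where that gene was high, against the distance between the starts in Mb. Diamonds mark the gene itself, filled points tested genes and open points the other genes of the table, which did not pass the filter on low counts; of the filled points, 10 of 13 around *Yap1* in Grilka, 2 of 3 around *Myc* in Ohio, 1 of 8 around *Mycn* in N215 and 2 of 13 around *Met* in Prince lie above the dotted 2-fold line.

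*Birc2* (chr9:7818227-7837064), 168 kb from *Yap1* between the starts, was highest in the same tumor. Grilka had 117 CPM from 87 counts and Zelda 95.7 CPM from 1411 counts, and the other KO tumors lay between 33.2 and 66.5 CPM. WT tumors ranged from 36.5 CPM in N215 through a median of 53.7 CPM to 85.5 CPM in N42 R pelvis. Grilka was 2.29-fold above the median of the 16, below the 4-fold limit, and its interval reached down to 93.6 CPM, which takes in the value of Zelda. The log2 fold change between the groups was 0.02 ± 0.30 (edgeR adjusted p = 0.982). Of 17 genes of the IAP and NF-kB list 0 passed and 3 had an unadjusted p under 0.05 (23% of all genes did), with a median of −0.0027. The most abundant were *Birc6*, at 432 ± 208 CPM in KO and 505 ± 56.2 CPM in WT (edgeR adjusted p = 0.719), and *Xiap*, at 103 ± 53 and 122 ± 34.1 CPM (adjusted p = 0.643).

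The Hippo pathway and its outputs were compared with *Yap1*. Of 18 core genes 0 passed and 1 had an unadjusted p under 0.05, against 23% of all genes (median log2 fold change −0.16). The most abundant were the angiomotin gene *Amotl1*, at 399 ± 363 CPM in KO and 202 ± 60.3 CPM in WT (edgeR adjusted p = 0.225), and the DNA-binding partner *Tead1*, at 195 ± 171 and 153 ± 46.8 CPM (adjusted p = 0.70). Of 15 genes known as YAP targets 3 fell and 0 rose in KO, against 2.15% and 1.86% of all genes. Their median was −0.85, against 0.10 for all genes, with 12 of 15 below 0. *Fstl1* fell by 2.67 on the log2 scale (edgeR adjusted p = 0.00201), *Nt5e* (CD73) by 2.53 (adjusted p = 0.0368) and *Ccn2* (CTGF) by 2.48 (adjusted p = 0.0444). All 3 are also expressed by mesenchymal cells at large. In Grilka, the tumor with high *Yap1*, 1 of the 15 was at least 2-fold above its median and 3 at least 2-fold below, against 14.5% and 30.9% of all genes. The median log2 distance of the 15 was 0.35 there, against −0.22 for all genes in that tumor. In the other KO tumors it lay between −1.28 (Prince) and −0.36 (Medusa), and in WT between −0.22 (N215) and 1.07 (N43 spine). The part of *Yap1* in these levels was not tested. Of the 3 genes that fell, *Ccn2* was at 448 CPM there (median 162), *Nt5e* at 26.9 CPM (median 45.3) and *Fstl1* at 63.1 CPM (median 133). N43 spine, with 95.1 CPM of *Yap1*, had 8 of the 15 at least 2-fold above, against 11.4% of all genes.

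**Figure D4:**
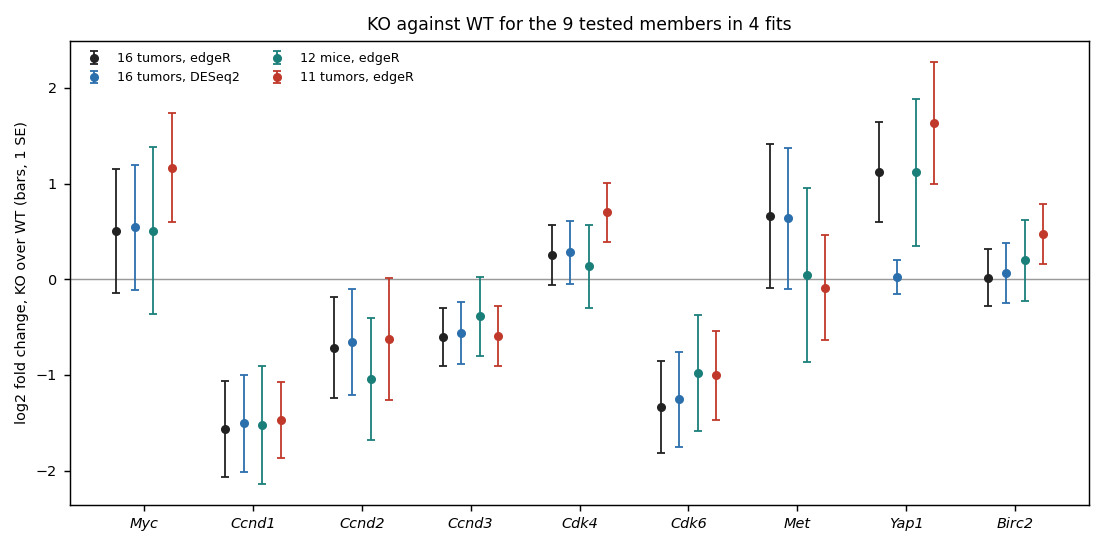
Log2 fold change, KO over WT, of the 9 tested genes in 4 fits, with bars of 1 SE: 16 tumors with edgeR (black) and DESeq2 (blue), counts summed over 12 mice (green) and 11 tumors without those holding markers of another tissue (red). *Ccnd1* and *Cdk6* lie below 0 in all 4, *Yap1* falls to 0.02 in DESeq2, and *Met* moves from 0.66 to −0.09 without the 5 tumors.

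Among themselves, the 9 tested genes spread more in KO than in WT, as did most of the table. The median SD of log2 CPM over the 9 was 1.27 among KO and 0.64 among WT tumors, against 1.11 and 0.51 for all genes tested. The SD was larger in KO for 8 of the 9 genes, against 90.4% of all genes. Within mouse N42 the 4 tumors differed most in *Myc* (34.8 to 147 CPM, SD 0.98 in log2 CPM), *Met* (3.79 to 15.6 CPM, SD 0.92) and *Ccnd1* (102 to 283 CPM, SD 0.73), so tumors of 1 animal did not share a level of these genes. The high *Myc* and *Pvt1* of N42 L limb were not seen in the 3 other tumors of that mouse, where *Myc* was at 34.8 to 47.8 CPM. That tumor also had 1262 CPM of *Rad21*, the cohesin gene on the same chromosome as *Myc* (median 132 CPM; named after its values were seen), which is 1 of 20 other genes recurrently amplified in osteosarcoma that were tested. None of the 20 passed between KO and WT and 7 had an unadjusted p under 0.05 (edgeR), against 4.01% and 23% of all genes. The most abundant were *Fgfr1*, at 198 ± 127 CPM in KO and 792 ± 535 CPM in WT (adjusted p = 0.0686), and *Mcl1*, at 316 ± 201 and 280 ± 63.3 CPM (adjusted p = 0.804).

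By median level per kb of exon the order was *Ccnd1* (21.1 CPM per kb), *Cdk4* (16.1), *Myc* (15.4), *Ccnd2* (12.1), *Birc2* (11.1), *Yap1* (10.6), *Ccnd3* (10.4), *Cdk6* (4.80), *Met* (1.88) and *Mycn* (0.139). Per kb of coding sequence the order was *Ccnd2* (123), *Ccnd1* (112), *Ccnd3* (92.0), *Cdk6* (68.7), *Yap1* (65.4), *Cdk4* (57.4), *Myc* (30.7), *Birc2* (23.1), *Met* (3.44) and *Mycn* (0.331), so only the last places held on both scales. The ranges of genes next to each other in the first order overlapped widely among the tumors, for example 1.03 to 60.0 for *Ccnd1* and 9.42 to 40.4 for *Cdk4*.

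The genes whose log2 CPM was most like that of a gene with a high tumor over the 16 tumors were, by Pearson r, *Ydjc* (0.90), *Isg20l2* (0.90) and *Foxd1* (0.89) for *Myc*, and *Trerf1* (0.88), *Hhip* (0.87) and *Adamts20* (0.85) for *Mycn*. For *Ccnd2* they were *Snrpg* (0.91), *Tmem126a* (0.83) and *Epb41l3* (0.83), and for *Met* *Zbtb4* (0.92), *Llgl2* (0.91) and *Peg13* (0.91). For *Yap1*, *Lztr1* (0.89) and *Nsmce3* (0.88) followed CAAA01147332.1 (0.91), but without Grilka r fell to between 0.49 and 0.74, so that this likeness rested on that tumor. For the 3 genes most like *Myc*, r without Ohio stayed between 0.87 and 0.90. The tumors share mice, depth and tissue makeup, and these values are descriptions.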

How the data were processed

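RNA was extracted from 16 mouse osteosarcomas, depleted of ribosomal RNA and sequenced in 50 cycles. The authors aligned the reads with Novoalign 2.08.01 to mm10 and Ensembl build 74 junctions, allowing up to 50 alignments per read, kept the best with USeq and deposited raw counts per gene. Strand was not given in the sources used here, so overlapping antisense genes cannot be told apart, and reads may be split with near-identical copies. Groups came from the labeled genotype and mice from the animal codes (8 KO and 4 WT mice). No batch was given.

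Counts were tested with edgeR 4.0.16 (R 4.3.3; TMM, filterByExpr with a minimum count of 10 and total of 15, quasi-likelihood test, Benjamini-Hochberg over 15413 genes, threshold 0.05), which left out 9641 genes. CPM used TMM library sizes, and log2 CPM a prior count of 2. Exact permutation tests were two-sided over 12870 splits of tumors or 495 of mice, with smallest p-values of 0.000155 and 0.00202. DESeq2 1.42.0, limma 3.58.1 and tumors left out were alternatives. Distances and exon lengths came from GENCODE vM21 (GRCm38), which held 24997 of the genes. In simulated counts, edgeR found 57 of 97 tested genes changed by 2 and 69 of 91 changed by 3 on the log2 scale among 15192 genes, with 5 false calls. The simulated tumors were independent and had the same dispersion in both groups. The real WT tumors share mice and the KO tumors spread more, so these rates need not hold for the real counts.

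The genes and lists were chosen with earlier results of these data known. Named were the 10 genes, those with conditional alleles, the 3 nearest tested genes on each side and the 3 most alike for genes with a high tumor, and, per list, the genes past the threshold or the 2 most abundant. Other genes were named after their values were seen. The labels do not say whether tumors of 1 mouse arose separately. P-values over tumors treat them as separate samples, which can make these p-values too small. In edgeR 618 genes passed over tumors and 10 with counts summed per mouse, where there are also fewer samples.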

Additional observations from a re-analysis of the deposited data

Results flagged for a closer look

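The 10 genes were examined in each group of 8 tumors for a value far from the others, 20 groups in all, by the ratio of the gap at an end to the whole range of log2 CPM (Dixon's test at the 95% level). For genes chosen beforehand and independent values, chance alone would flag about 1 in 20 groups. These genes were chosen with earlier results of the data known, and WT tumors share mice. That rate therefore need not hold here, and the flags are descriptions. *Yap1* in Grilka stood 0.681 of the range above the next KO tumor. *Mycn* in N215 stood 0.608 of the range above the next WT tumor. *Myc* in Ohio, *Ccnd2* in N215 and *Met* in Prince and N25 did not pass this test within their groups.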

How the results depend on the processing

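No paired analysis was possible because no mouse gave tumors to both groups. Over 24 alternatives for each of the 9 tested genes, 216 in all, 195 kept the direction and the side of the threshold, 16 reversed the direction and 5 brought a gene past it. The number of the 9 genes past the threshold was 1 with DESeq2, without Massa and Grilka, and without the 5 tumors with other tissue (chosen after seeing the data), and 0 to 1 with each tumor left out, where leaving out Massa (*Ccnd1*) or Zelda (*Cdk6*) gave 1. The number of all genes was 2517 with DESeq2, 10 per mouse, 17 with limma-voom, 8 without N42, 1195 without the 5 tumors, and 252 to 1348 with each tumor left out. *Ccnd1* was called in 4 of 24 alternatives, with adjusted p-values from 0.0311 to 0.612. Those of *Cdk6* ranged from 0.0208 to 0.791, and its exact permutation p over mice (0.0808) missed the threshold, as did that of *Ccnd3* (0.299).

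Reversed values of the log2 fold change were −0.27 for *Myc* without Ohio; −0.052, −0.088 and −0.063 for *Met* without N42, without the 5 tumors and without Prince; and −0.077 and −9.96e-05 for *Yap1* without Massa and Grilka and without Grilka alone. *Birc2*, at 0.02, reversed without the filter (−0.043), with limma-voom (−0.032), without Massa and Grilka (−0.17), and on leaving out 1 of 7 tumors (−0.21 to −0.0058). With each tumor left out in turn, the ranges were −0.27 to 0.83 for *Myc*, −0.063 to 1.71 for *Met*, −9.96e-05 to 1.25 for *Yap1* and −0.21 to 0.12 for *Birc2*. Per mouse the difference in mean log2 CPM of *Mycn* was −1.07 against 0.13 over tumors, and of *Birc2* 0.047 against −0.12. With coding length the *Cdk4* share was 64.5% in KO and 36.3% in WT, and the *Ccnd1* share in WT 42.1%; *Ccnd1* then led the D-type cyclins in 4 WT and 0 KO tumors. Within 500 kb, 100% of the tested neighbors of *Yap1* were at least 2-fold above their median in Grilka. The number of tested genes with a high tumor was 3 to 4 in the alternatives run. Depth and the large share of a few genes limit Massa and Grilka most.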
